A study of Mus musculus with 8 samples.

Results

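Complement is a cascade of serum and membrane proteins that tags and lyses microbes and damaged cells. 9 of its genes that kidney tubule cells can express, out of 24063 genes listed, were followed by RNA-Seq in mouse tubuloids, which are tubule-like structures grown from kidney tubule fragments in Matrigel. They were chosen by name: the components *C3* and *C4b*, the proteases *Cfb* and *C1ra*, the soluble inhibitor *Cfi*, and the membrane inhibitors *Cd55*, *Cd46*, *Cd59a* and *Crry*, which is listed as *Cr1l*. All 9 were found and all 9 passed the filter on low counts.

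4 GDNF cultures (numbered 6, 12, 17 and 22) received a 24 h pulse of GDNF, the ligand that drives the ureteric bud to branch, at 20 ng/ml. 4 control cultures (numbered 3, 7, 14 and 21) received the same medium without it, and the comparison asks how the pulse changed gene expression. All 8 came from kidneys of Pkd2fl/fl Pax8rtTA TetOCre mTmG mice, so that both groups carry the same floxed *Pkd2*, the tetracycline-dependent activator driven by the *Pax8* promoter of tubule epithelium, the Cre transgene that it controls, and a fluorescent reporter of recombination. No doxycycline, which would turn Cre on, is listed for these cultures. The labels give the kidneys as postnatal day 7 to 10 and the methods as day 4 to 7, and RNA was taken on culture day 7 in both groups, 6 days after the pulse. The sources do not say how many animals made up each culture, nor whether cultures shared an animal, so p-values measure the spread between cultures only.

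In textbook accounts the classical pathway starts when C1r, encoded in mouse by *C1ra*, activates C1s, which cleaves C4, and the alternative pathway amplifies C3 cleavage through factor B. Host cells restrain both: factor I cuts deposited C3b and C4b with the help of CD46 or the rodent protein Crry, CD55 breaks up the enzymes that cleave C3, and CD59 blocks the pore that ends the cascade. The kidney makes much of its own C3, mainly in tubule epithelium, and Crry is known to protect that epithelium from the alternative pathway.

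Total counts summed over transcripts were 72991721 to 97490625 per culture. Summed over 8 epithelial markers such as *Epcam* and *Cdh1*, the level was 1012 to 1509 TPM (a transcript's share of all transcripts, corrected for length) in GDNF cultures and 409 to 3423 TPM in controls. Summed over 9 stromal markers it was 257 to 1374 TPM in GDNF cultures and 206 to 1731 TPM in controls, with none of the 9 at or under 3 counts, and over 7 endothelial markers it was 57.0 to 146 TPM in GDNF cultures and 33.7 to 120 TPM in controls. Over 11 macrophage and leukocyte markers it was 8.24 to 49.7 TPM in GDNF cultures and 8.34 to 12.2 TPM in controls, with *Cd3e* listed at 0 in every culture. The defining proximal tubule genes *Lrp2* (up to 0.0899 TPM), *Slc34a1* (up to 0.0401 TPM) and *Slc22a6* (up to 0.0350 TPM) were near 0. The sum over all 6 proximal markers was 9.74 to 12.5 TPM in GDNF cultures and 4.07 to 8.84 TPM in controls, most of it *Slc5a2* (3.75 to 12.2 TPM), of whose exon bases 26.2% overlap *BC017158* on the opposite strand; *Cubn* was at 0.0671 to 0.216 TPM and *Aqp1* at 0.134 to 0.390 TPM. From these bulk libraries a complement transcript cannot be assigned to epithelium rather than stroma. Nor can fewer cells of a type be told apart from less RNA per cell.

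Which reads can be told apart sets what the counts mean, since *C4b* and *C1ra* have near-identical neighbours. *C4b* and *C4a* are shown here in the 75 base coding window, the length of a read, in which they differ most. It lies at chr17:34735430-34735504 for *C4b* and at chr17:34816086-34816160 for *C4a* on the minus strand of GRCm38, is given 5′ to 3′, and the capitals mark the 13 positions at which the copies differ.
C4b: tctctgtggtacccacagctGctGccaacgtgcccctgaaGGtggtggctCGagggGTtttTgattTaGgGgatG
C4a: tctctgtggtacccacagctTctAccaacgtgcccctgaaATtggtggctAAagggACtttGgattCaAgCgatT
Along 5357 aligned bases the GENCODE transcripts of these copies were 96.2% identical, and the longest stretch without a difference was 433 bases. Of all 75 base windows of the *C4b* transcript, 23.5% occurred letter for letter in *C4a*, and of those of *C1ra* 40.1% occurred in *C1rb*. The share with any other gene was 0% for *C3* and *Cfi*, 1.73% for *Cd59a*, 10.6% for *Cd55* and 19.5% for *Cr1l*. For *Cfb* it was 78.9%, all with the annotated gene *Gm20547*, whose exons also overlap those of *C2*. The levels of *C4b* and *C1ra* are therefore uncertain to the extent that such reads were dropped, and that of *C4b* also to the extent that they were divided. *C1rb* had at most 1 count in any culture, so hardly any reads shared with *C1ra* were credited to it. *Cfb* differs, since 82.0% of its exon bases lie within exons of *Gm20547* at the same place and on the same strand. How reads there were credited is not given in the sources. For *Cd46* no GENCODE transcript of matching length was available and no such share is given. The libraries were read in pairs, and these shares are of single windows, not of read pairs that cannot be told apart.

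Promoters, here the 250 bases before and the 50 bases after the RefSeq start, were at hand for 6 of the 9 genes. 3 are shown because *C3* is the component on which all pathways converge, while *Cd46* and *Cd55* were the members whose GDNF and control cultures did not overlap once the counts were normalised. The *C3* promoter lies at chr17:57228087-57228386, that of *Cd46* at chr1:195092199-195092498 and that of *Cd55* at chr1:130462695-130462994, all on the minus strand of GRCm38.p6. For *Cd46* and *Cd55* the whole window lies inside the chromosome span given for the gene below. The start used for these genes is therefore not the outer end of that span. The promoters are written 5′ to 3′ in the direction of transcription, and capitals mark the motifs named below.
C3: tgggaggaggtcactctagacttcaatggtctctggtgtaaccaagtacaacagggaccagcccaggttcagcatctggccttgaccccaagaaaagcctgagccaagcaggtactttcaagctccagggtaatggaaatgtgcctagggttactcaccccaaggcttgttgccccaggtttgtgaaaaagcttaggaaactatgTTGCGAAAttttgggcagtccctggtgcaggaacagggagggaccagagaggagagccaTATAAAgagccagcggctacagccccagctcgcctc
Cd46: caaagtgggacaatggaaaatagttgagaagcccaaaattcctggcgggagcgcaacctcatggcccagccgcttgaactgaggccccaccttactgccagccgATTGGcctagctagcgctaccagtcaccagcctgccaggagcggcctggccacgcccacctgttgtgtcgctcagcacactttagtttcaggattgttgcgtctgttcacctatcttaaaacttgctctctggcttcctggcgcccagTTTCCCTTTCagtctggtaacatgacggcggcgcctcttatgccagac
Cd55: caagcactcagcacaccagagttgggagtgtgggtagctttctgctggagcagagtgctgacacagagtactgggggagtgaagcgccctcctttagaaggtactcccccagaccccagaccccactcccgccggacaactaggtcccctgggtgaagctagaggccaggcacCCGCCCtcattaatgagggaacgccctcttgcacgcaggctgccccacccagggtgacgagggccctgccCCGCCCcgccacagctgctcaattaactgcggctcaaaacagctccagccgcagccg
The motifs were searched on both strands. The C/EBP letters TTGCNNAA, found in 10.8% of 32851 promoters of the same length, occurred in *C3* 45 to 38 bases before the start, and the TATA letters TATAAA, found in 13.6%, occurred there 14 to 19 bases after it. *Cd46* held the interferon-response letters, which are GAAA, any 2 bases and GAAA again and were found in 3.44% of promoters, 2 to 11 bases after the start on the opposite strand, and the letters CCAAT, found in 37.4%. *Cd55* held the Sp1 letters GGGCGG, found in 35.7%, on the opposite strand, 77 to 72 and 7 to 2 bases before the start. Of the promoters not shown, that of *Cd59a* (chromosome 2) held the interferon-response letters, that of *C1ra* (chromosome 6) held the C/EBP letters and the letters TTCNNNGAA, found in 8.30% of promoters, and that of *Cr1l* (chromosome 1) held none of the 7 motifs. The NF-kB letters, which are GGG, any 2 bases and TTTCC and were found in 1.63%, were in none of the 6. No 2 of these matches overlapped.

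Over all 8 cultures the membrane inhibitors *Cr1l* and *Cd59a* were the most abundant members per length, while the other 2, *Cd55* and *Cd46*, had lower means than *C3* and *Cfi*. Mean levels (± SD, n = 8 cultures) were 55.3 ± 6.13 TPM for *Cr1l*, 35.9 ± 7.13 TPM for *Cd59a*, 9.03 ± 5.54 TPM for *C3*, 7.53 ± 5.55 TPM for *Cfi* and 4.39 ± 0.874 TPM for *Cd55*. They were followed by *Cfb* at 2.52 ± 1.20 TPM, *Cd46* at 2.49 ± 1.44 TPM, *C1ra* at 1.78 ± 1.11 TPM and *C4b* at 0.0423 ± 0.0374 TPM. The order was tested between neighbours within cultures by a two-sided exact sign-flip permutation test on log2(TPM + 0.1), adjusted by Benjamini-Hochberg over the 8 pairs. The neighbours were set by the means of these same 8 cultures, so the p-values are not those of pairs chosen beforehand. *Cr1l* exceeded *Cd59a* in 8 of 8 cultures, by a mean of 0.64 on that log2 scale (adjusted exact p = 0.0208). *Cd59a* exceeded *C3* in 8 of 8 cultures, by 2.20 (adjusted exact p = 0.0208). *Cd55* exceeded *Cfb* in 7 of 8, by 0.90 (adjusted exact p = 0.0469), and *C1ra* exceeded *C4b* in 8 of 8, by 3.51 (adjusted exact p = 0.0208). The other neighbours did not differ beyond their spread: *C3* and *Cfi* (adjusted exact p = 0.292), *Cfi* and *Cd55* (adjusted exact p = 0.402), *Cfb* and *Cd46* (adjusted exact p = 0.586) and *Cd46* and *C1ra* (adjusted exact p = 0.212). With TPM summed over the transcripts of a gene, 5 of the 9 genes kept their place in this order. Only *Cd59a* and *Cfb* have 2 transcripts, and a read shared by both enters that sum more than once. In the summed order *Cd59a* stood above *Cr1l* and *Cfb* above *Cd55*, so the order within these pairs depends on how transcripts are counted.

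**Figure D1:**
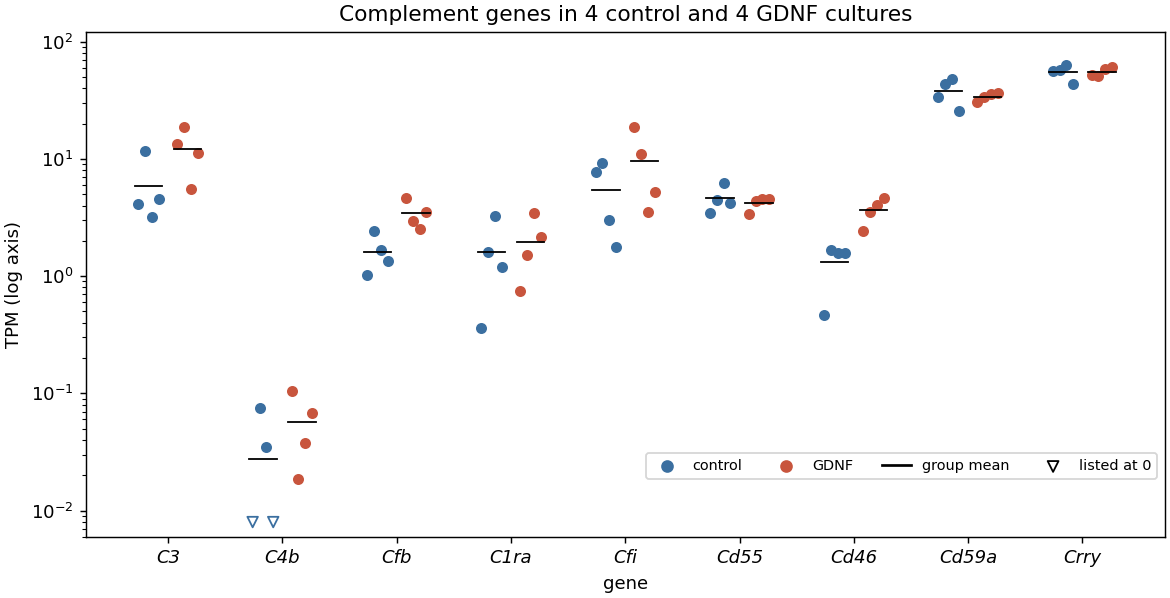
Level of each complement gene in TPM on a log axis, with a point for each of 4 control (blue) and 4 GDNF (red) cultures, a black bar at each group mean and open triangles for cultures listed at 0. *Crry* and *Cd59a* sit between 25.8 and 63.7 TPM in every culture, *C4b* is at or below 0.105 TPM, and the groups are apart for *Cfb* and *Cd46*.

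GDNF and control cultures were then compared. No member changed by edgeR's quasi-likelihood test after Benjamini-Hochberg adjustment over 16557 genes, of which 0% passed. DESeq2 gave an adjusted p to 9170 genes, of which 14.7% passed; among them were 3 of the 9 members, and 0 of these passed. In limma-voom 0 of the 9 passed. *Cfb* and *Cd46* were higher with GDNF, and *Cd55*, *Cd59a* and *Cr1l* lower, at an unadjusted p of at most 0.05. These are 5 of the 9 members, where 22.1% of all genes tested reached that level (9.25% higher and 12.9% lower). The scale mattered for direction: over all genes the median log2 difference, GDNF minus control, was 0.41 in TPM, 0.25 in counts scaled by library size and 0.03 in CPM (counts relative to the library total) scaled by the trimmed mean of M-values (TMM), which was used for the edgeR test. With library size alone, 3299 genes (19.9%) were higher and 850 (5.13%) lower at an unadjusted p of at most 0.05, against 1531 and 2134 with TMM. With library size alone 0 of the 3 lower members reached this level, though their log2 fold changes stayed negative (-0.31 for *Cd55*, -0.34 for *Cd59a* and -0.18 for *Cr1l*), and in log2(TPM + 0.1) the differences were -0.11 for *Cd55*, -0.11 for *Cd59a* and 0.01 for *Cr1l*. In TPM 79.8% of the 13698 genes averaging at least 1 TPM were higher with GDNF. The members' median log2 fold change was 0.38, beside 0.03 over all genes.

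Among the components, *C3* (NM_009778, chr17:57203967-57228136), the substrate of both C3-cleaving enzymes, was the most abundant. Its level was 4.14, 11.6, 3.20 and 4.57 TPM in control cultures 3, 7, 14 and 21, and 13.3, 18.8, 5.52 and 11.2 TPM in GDNF cultures 6, 12, 17 and 22. GDNF culture 12 was highest and control culture 14 lowest, and the groups overlapped because control culture 7 exceeded GDNF cultures 17 and 22. The edgeR log2 fold change was 0.67 ± 0.44 (SE, n = 4 per group; edgeR adjusted p = 0.383), with 959 to 4843 counts per culture. It was 1.17 without control culture 7 (edgeR unadjusted p = 0.0163, adjusted p = 0.146) and 0.39 without GDNF culture 12 (unadjusted p = 0.413, adjusted p = 0.690), and with the kind of culture, described below, as a covariate it was 0.71 (unadjusted p = 0.0273, adjusted p = 0.168). The two-sided exact permutation test on log2(TPM + 0.1) gave p = 0.0857, where 0.0286 is the smallest value that 70 assignments allow.

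*C4b* (NM_009780, chr17:34728139-34743902), a component of the classical and lectin pathways, was close to the limit of detection. It had 0, 24, 11 and 0 counts in control cultures 3, 7, 14 and 21, and 28, 5, 10 and 14 counts in GDNF cultures 6, 12, 17 and 22. The groups overlapped, and a count of 0 still allows up to 3 counts in each of control cultures 3 and 21. Its log2 fold change was 0.73 ± 1.14 (SE; edgeR adjusted p = 0.731), so that a difference of either sign was not detectable at this depth. Its neighbour *C4a* was at 0.102 to 0.289 TPM, and 30 to 77 counts, in the 8 cultures.

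Of the proteases, *Cfb* (NM_001142706, chr17:34856374-34862514), which encodes factor B, was at 1.02, 2.42, 1.67 and 1.34 TPM in control cultures 3, 7, 14 and 21 and at 4.65, 2.94, 2.54 and 3.54 TPM in GDNF cultures 6, 12, 17 and 22. Every GDNF culture was above every control in TPM (exact permutation p = 0.0286), as were 23.4% of those 13698 genes. In TMM-scaled CPM the groups overlapped, with 8.08 and 6.98 CPM in GDNF cultures 12 and 17 and 8.27 CPM in control culture 7. The log2 fold change was 0.72 ± 0.28 (SE; edgeR unadjusted p = 0.0300, adjusted p = 0.193), and 0.41 without control culture 3 and GDNF culture 6 together.

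*C1ra* (NM_023143, chr6:124512621-124523440) varied over a 9.45-fold range of TPM between cultures, and no difference with treatment was detected. Controls 3, 7, 14 and 21 held 0.363, 1.60, 3.28 and 1.18 TPM, and GDNF cultures 6, 12, 17 and 22 held 0.752, 1.50, 3.42 and 2.14 TPM. The highest and the second highest cultures, GDNF culture 17 and control culture 14, came from different groups. The log2 fold change was -0.06 ± 0.58 (SE; edgeR adjusted p = 0.964).

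*Cfi* (NM_007686, chr3:129836727-129875332), the gene of the soluble inhibitor factor I, was at 7.68, 9.15, 3.04 and 1.78 TPM in control cultures 3, 7, 14 and 21 and at 18.8, 11.0, 3.54 and 5.25 TPM in GDNF cultures 6, 12, 17 and 22. Both groups held high and low cultures and overlapped widely. The log2 fold change was 0.38 ± 0.66 (SE; edgeR adjusted p = 0.757), and without GDNF culture 6 it was -0.22.

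Among the membrane inhibitors, *Cd46* (NM_010778, chr1:195038971-195098784), a cofactor for factor I that in mice is known mainly from testis, had the largest log2 fold change of the 9. It was at 0.466, 1.68, 1.57 and 1.58 TPM in control cultures 3, 7, 14 and 21 and at 2.41, 3.50, 4.06 and 4.64 TPM in GDNF cultures 6, 12, 17 and 22. The groups did not overlap in TPM (exact permutation p = 0.0286), nor in TMM-scaled CPM, where controls spanned 0.485 to 1.27 CPM and GDNF cultures 1.56 to 2.66 CPM. In CPM the groups did not overlap for 13.2% of all genes tested, and 6.99% were higher with GDNF. Its log2 fold change was 1.12 ± 0.37 (SE; edgeR unadjusted p = 0.0130, adjusted p = 0.167), from 35 to 240 counts per culture, and it lay between 0.89 and 1.30 over 16 alternative settings, with an adjusted p of 0.120 to 0.381 where one was given.

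*Cd55* (NM_010016, chr1:130429798-130465009), which encodes decay-accelerating factor, was at 3.48, 4.42, 6.26 and 4.20 TPM in control cultures 3, 7, 14 and 21 and at 3.41, 4.35, 4.51 and 4.50 TPM in GDNF cultures 6, 12, 17 and 22. The groups overlapped in TPM (exact permutation p = 0.714). In TMM-scaled CPM they did not, with 6.14 to 9.84 CPM in controls and 4.61 to 5.70 CPM with GDNF, as for 6.26% of all genes tested in this direction. The log2 fold change was -0.53 ± 0.21 (SE; edgeR unadjusted p = 0.0299, adjusted p = 0.192).

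*Cd59a* (NM_001111060, chr2:104095753-104115410), the inhibitor of the lytic pore, was at 33.4, 43.7, 48.2 and 25.8 TPM in control cultures 3, 7, 14 and 21 and at 30.4, 33.4, 35.9 and 36.2 TPM in GDNF cultures 6, 12, 17 and 22. Control culture 21 was below every GDNF culture, and in CPM this culture alone made the groups overlap. The log2 fold change was -0.57 ± 0.21 (SE; edgeR unadjusted p = 0.0212, adjusted p = 0.178). With a culture left out, it ran from -0.47 without control culture 14 (edgeR adjusted p = 0.241) to -0.80 without control culture 21 (edgeR adjusted p = 0.0583).

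*Crry* (*Cr1l*, NM_013499, chr1:195098711-195131570), the rodent cofactor and decay accelerator on cell surfaces, was the steadiest member in TPM, with a 1.45-fold range. It was at 56.4, 57.0, 63.7 and 43.9 TPM in control cultures 3, 7, 14 and 21 and at 52.1, 51.2, 57.9 and 60.3 TPM in GDNF cultures 6, 12, 17 and 22, so that group means were 55.2 ± 8.25 TPM and 55.4 ± 4.43 TPM (SD, n = 4 each). The edgeR log2 fold change was -0.42 ± 0.19 (SE; unadjusted p = 0.0472, adjusted p = 0.221), while the difference of log2(TPM + 0.1) was 0.01 (exact permutation p = 0.943). With a culture left out, the edgeR value ran from -0.27 without control culture 3 (adjusted p = 0.465) to -0.61 without control culture 21 (adjusted p = 0.0600).

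The spread within groups was narrower with GDNF for *Cd59a* and *Cr1l*. The SD of log2 CPM was 0.47 in controls and 0.06 with GDNF for *Cd59a*, and 0.39 and 0.08 for *Cr1l*, beside medians of 0.32 and 0.21 over 11461 genes averaging at least 5 CPM. For *C3* it was 0.80 and 0.76, and for *Cfi* 1.29 and 1.13, so that those genes varied in both groups by more than the median gene. No test of these spreads was made.

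**Figure D2:**
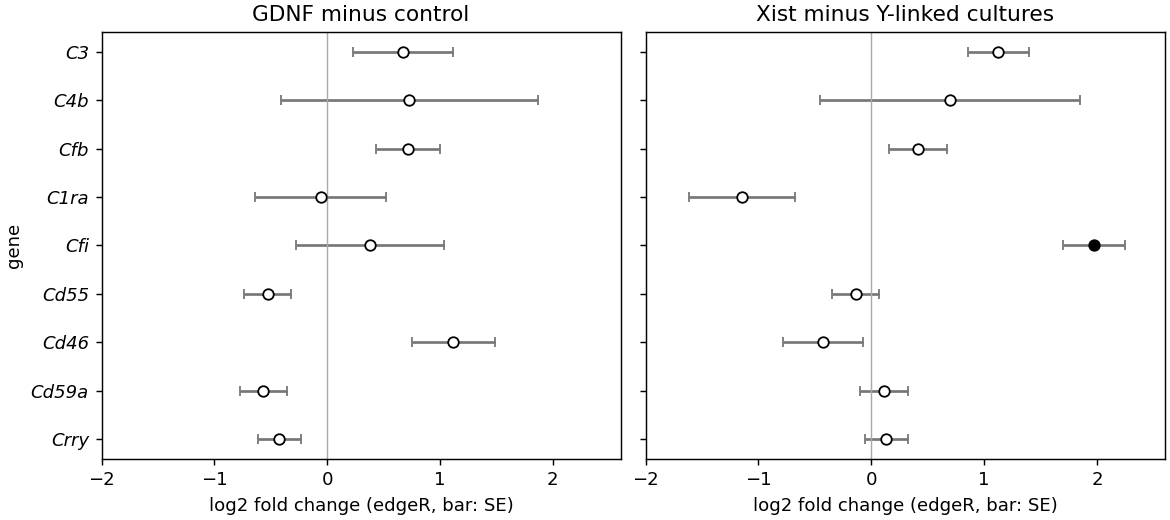
Fitted log2 fold change of each member with its standard error (bars), for GDNF minus control (left) and for cultures with *Xist* minus those with Y-linked RNA (right), where filled points have an edgeR adjusted p of at most 0.05. The GDNF values run from -0.57 for *Cd59a* to 1.12 for *Cd46* with no filled point, and on the right the point of *Cfi* at 1.97 is filled.

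The cultures also fall into 2 kinds by their RNA of sex-linked genes. Those with more *Xist* RNA than summed RNA of 4 Y-linked genes were controls 3 and 7 with GDNF cultures 6 and 12, and the rest were controls 14 and 21 with GDNF cultures 17 and 22, so each treatment held 2 of each kind. Control culture 3 (12.5 TPM *Xist* and 1.50 TPM Y-linked) and GDNF culture 6 (57.4 and 6.46 TPM) held RNA of both. The kind is no group of the study, and with 4 cultures a kind it cannot be told apart from other differences between those cultures. It was tested together with treatment in the edgeR model, because some complement genes are known to differ by sex in mice.

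*Cfi* was higher in the *Xist* cultures. It was at 7.68, 9.15, 18.8 and 11.0 TPM in the *Xist* cultures (controls 3 and 7, GDNF 6 and 12), against 3.04, 1.78, 3.54 and 5.25 TPM in the Y-linked ones (controls 14 and 21, GDNF 17 and 22). The kinds did not overlap, in TPM or in CPM, where 3.31% of all genes tested were higher with *Xist* without overlap (1.72% of the 13698 in TPM). The log2 fold change was 1.97 ± 0.28 (SE, n = 4 per kind; edgeR adjusted p = 0.0252), and 0.411% of all genes passed, 60 of them higher (0.362%) and 8 lower (0.0483%). The log2 difference was 2.13 within controls and 1.83 within GDNF cultures. The call was lost without GDNF culture 6 (edgeR adjusted p = 0.107), GDNF culture 17 (adjusted p = 0.101), control culture 3 (adjusted p = 0.0930) or control culture 7 (adjusted p = 0.0789). Without the 2 cultures that held RNA of both kinds, a setting added once the data had been seen, it was 1.68 (edgeR adjusted p = 0.307).

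*C3* went the same way as *Cfi* with a log2 fold change of 1.13 ± 0.27 (SE; edgeR unadjusted p = 0.00224, adjusted p = 0.140), but the kinds overlapped, with control culture 3 at 18.2 CPM and the Y-linked GDNF culture 22 at 27.1 CPM. *C1ra* was lower in the *Xist* cultures, at 1.05 ± 0.597 TPM against 2.51 ± 1.05 TPM (SD, n = 4 each), with a log2 fold change of -1.15 ± 0.47 (SE; edgeR unadjusted p = 0.0352, adjusted p = 0.361). These 3 members had an unadjusted p of at most 0.05, as did 12.4% of all genes tested (7.13% higher and 5.22% lower). For the other 6 the log2 fold change by kind lay between -0.43 for *Cd46* and 0.70 for *C4b*, with edgeR adjusted p from 0.535 to 0.865. Whether the response to GDNF depended on kind was tested as an interaction, which no member and no gene passed (edgeR unadjusted p from 0.252 to 0.987 over the 9 members, with 94 genes, or 0.568%, at an unadjusted p of at most 0.05). With so few cultures of each kind per treatment, this result does not show that the response was alike in both kinds. *Cd46* was higher with GDNF within both kinds, by log2 differences of 1.20 in *Xist* and 1.15 in Y-linked cultures, and *Cfb* by 0.73 and 0.70. Of the members lower with GDNF, *Cd55* had -0.53 in *Xist* and -0.49 in Y-linked cultures. The difference was larger in *Xist* than in Y-linked cultures for *Cd59a* (-0.76 and -0.27) and *Cr1l* (-0.63 and -0.14).

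Markers of cell types moved with kind too. The stromal gene *Dcn* fell with *Xist* (log2 fold change -3.21 ± 0.53, SE; edgeR adjusted p = 0.0430), and all 9 stromal markers had a negative value, with 4 at an unadjusted p of at most 0.05; their summed level was 206 to 1176 TPM in *Xist* and 669 to 1731 TPM in Y-linked cultures. *Umod* of the thick ascending limb (3.40 ± 0.39, SE; edgeR adjusted p = 0.0142) and *Calb1* of the distal tubule (2.81 ± 0.43, SE; edgeR adjusted p = 0.0334) rose, and the sum over 7 loop, distal and collecting duct markers was 12.7 to 52.3 TPM in *Xist* and 1.98 to 8.03 TPM in Y-linked cultures. Of these 7, 5 were tested, and 4 had a positive and 1 a negative value. *Aqp2* of the collecting duct had at most 25 counts in any culture. All 6 endothelial markers tested had a negative value, with 3 at an unadjusted p of at most 0.05. All 5 injured tubule markers had a positive value, with 2 at that level. Over all genes tested 5.22% were lower and 7.13% higher with *Xist* at that level. Positive values were held by 7 of 8 epithelial, 3 of 4 proximal and 4 of 8 macrophage and leukocyte markers tested. The part of cell makeup in the values of *Cfi*, *C3* and *C1ra* was not tested.

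**Figure D3:**
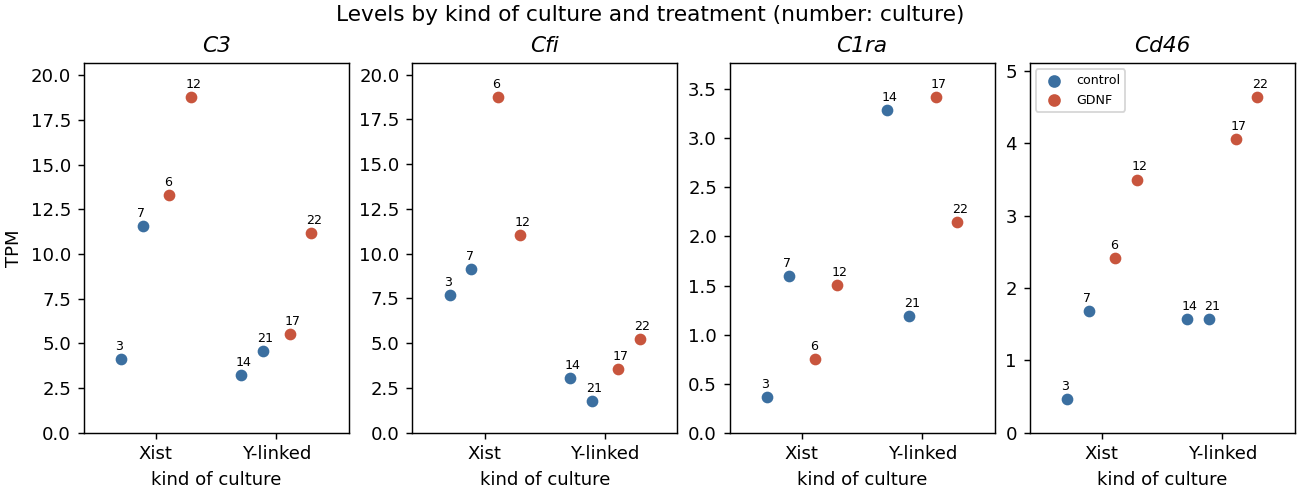
TPM of *C3*, *Cfi*, *C1ra* and *Cd46* in each culture (number), set by kind of culture on the x axis and coloured by treatment; each panel has its own y axis from 0. The 4 *Xist* cultures lie at 7.68 TPM or above for *Cfi* and the Y-linked ones at 5.25 TPM or below, while for *Cd46* the GDNF cultures are above the controls within each kind.

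For context, 51 further complement genes were listed, of which 50 were found in the tables and 27 passed the filter on low counts. By mean level 9 had at least 5 TPM, 3 had 1 to 5 TPM, 28 were under 1 TPM and 10 had at most 3 counts in every culture (among them *C1rb*, *Mbl1*, *Fcnb*, *Colec10*, *C8b*, *Itgax*, *Vsig4*, *Cpn2* and *Daf2*). Those at 5 TPM or more were mostly inhibitors and initiators. *Clu*, a chaperone that also blocks the lytic pore, was at 606 to 1656 TPM in controls and 730 to 3062 TPM with GDNF. *Serping1*, the C1 inhibitor, had a mean of 49.5 TPM. *C1s1*, the substrate of C1r, had 5.48 TPM, the scavenger receptor *Colec12* 30.5 TPM, *C8g* 11.9 TPM, *Masp2* 8.89 TPM, *Susd4* 6.45 TPM and *C1qbp*, which is mainly mitochondrial, 103 TPM. The C1q chains *C1qa*, *C1qb* and *C1qc*, which macrophages make, averaged 0.240 to 0.577 TPM.

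0 of the 27 changed with GDNF by the edgeR test after adjustment, and 5 had an unadjusted p of at most 0.05, a level that 22.1% of all genes tested reached. *Masp2*, a lectin pathway protease, was higher with GDNF by 0.97 ± 0.26 on the log2 scale (SE; edgeR unadjusted p = 0.00434, adjusted p = 0.167), at 2.10 to 7.28 TPM in controls and 9.39 to 15.1 TPM in GDNF cultures. DESeq2, which gave an adjusted p to 7 of the 27, called this gene alone (adjusted p = 0.0261), where 14.7% of all genes with an adjusted p were called. Of its exon bases 59.4% overlap those of *Tardbp* on the opposite strand. Strand handling is not given in the sources used here, so reads from that overlap cannot be assigned to 1 of these 2 genes. *C8g* was higher by 0.52 ± 0.20 (SE; edgeR unadjusted p = 0.0266) and the membrane inhibitor *Csmd1* by 0.95 ± 0.35 (SE; edgeR unadjusted p = 0.0226). *C1qbp* was lower, with -0.58 ± 0.23 (SE; edgeR unadjusted p = 0.0330), as was *Cd59b*, the copy of *Cd59a*, with -0.91 ± 0.40 (SE; edgeR unadjusted p = 0.0454). The median log2 fold change of the 27 was 0.25, with 15 positive and 12 negative, beside 0.03 over all genes.

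**Figure D4:**
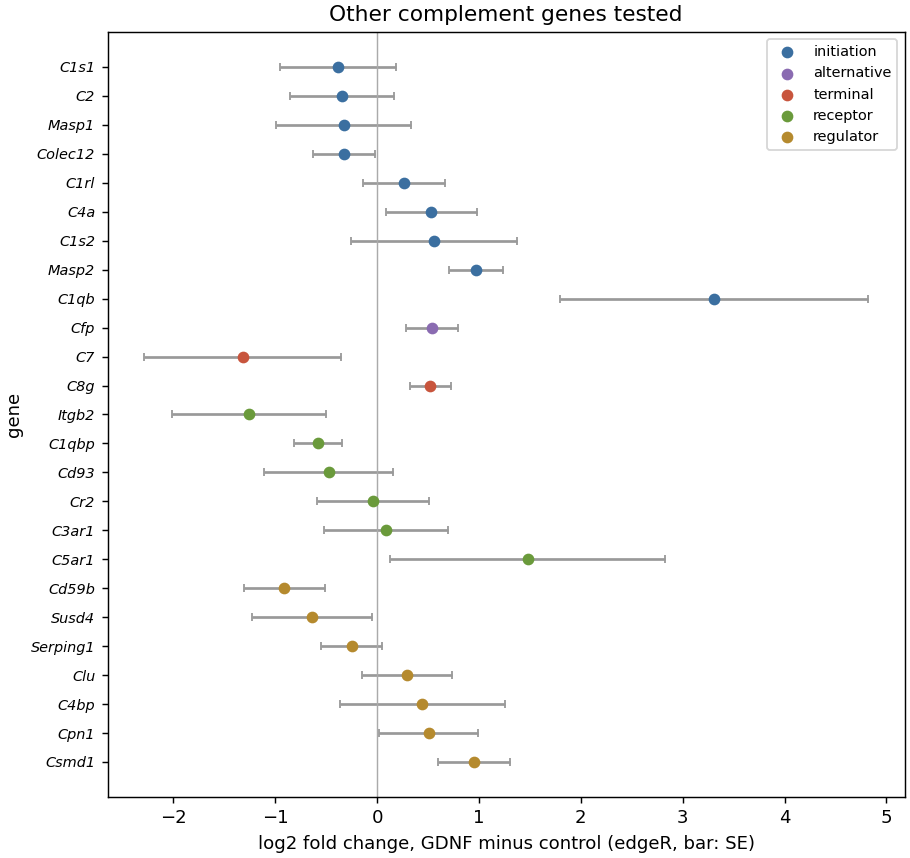
Fitted log2 fold change, GDNF minus control, with its standard error (bars) for 25 of the 27 other complement genes tested, coloured by their place in the cascade. *Masp2* at 0.97, *Csmd1* at 0.95 and *C8g* at 0.52 are the points to the right with an unadjusted p of at most 0.05, and the wide bar of *C1qb* belongs to a gene with 0 to 151 counts.

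By kind of culture *Clu* did not pass the test, with a log2 fold change of 1.17 ± 0.26 (SE; edgeR adjusted p = 0.119) and no overlap between the kinds in CPM, as for 3.31% of all genes tested in this direction. *C1s1* did not pass either, with -1.20 ± 0.44 (SE; edgeR unadjusted p = 0.0219, adjusted p = 0.315).

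Genes of the acute phase and of the cytokine pathways known to induce *C3* and *Cfb* were read in the same fit. Of 41, 34 were tested, 0 passed after adjustment for GDNF against control by edgeR, and 1 had an unadjusted p of at most 0.05, beside 22.1% of all genes tested. That was *Cp*, which encodes ceruloplasmin (0.62 ± 0.26, SE; edgeR unadjusted p = 0.0409, adjusted p = 0.212). *Stat3* was at 29.6 to 52.8 TPM in controls and 57.8 to 76.7 TPM with GDNF, with a log2 fold change of 0.30 ± 0.14 (SE; edgeR adjusted p = 0.242). *Cebpb*, whose protein binds C/EBP sites, was at 202 to 272 TPM in controls and 223 to 295 TPM with GDNF (-0.27 ± 0.17, SE; edgeR adjusted p = 0.364). *Il6* was at 5.23 to 17.5 TPM and 3.86 to 38.1 TPM (0.29 ± 0.57, SE; edgeR adjusted p = 0.789). The other 24 genes with a mean of 5 TPM or more, among them the receptors *Osmr*, *Il6st* and *Ifngr1*, the kinases *Jak1* and *Jak2* and the factors *Nfkb1*, *Rela*, *Cebpd* and *Irf1*, had log2 fold changes from -0.50 to 0.61 (edgeR adjusted p from 0.270 to 0.896). *Saa1*, *Saa2*, *Orm1*, *Il1b* and *Ifng* had at most 3 counts in every culture. The median log2 fold change of the 34 was 0.12, beside 0.03 over all genes. By kind, 2 of the 34 rose with *Xist*, beside 0.362% of all genes tested: *Lcn2*, an iron-binding marker of tubule injury (1.76 ± 0.29, SE; edgeR adjusted p = 0.0408), and *Lbp*, which binds lipopolysaccharide (1.44 ± 0.23, SE; edgeR adjusted p = 0.0408). *Cd14*, its partner, had 1.32 ± 0.25 (SE; edgeR adjusted p = 0.0628).

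Across the 8 cultures the pattern of *C3* was most like that of *Pkhd1*, which encodes fibrocystin and is mutated in recessive polycystic kidney disease. Likeness was the mean absolute difference between log2 CPM values centred on each gene's mean, over 11455 genes averaging at least 5 CPM. It was 0.18 for *Pkhd1*, 0.19 for the catenin gene *Ctnnd2*, 0.20 for *D730005E14Rik*, 0.21 for *Vwa2* and 0.21 for *Tnfrsf19*, where the mean absolute deviation of *C3* itself was 0.70. *Pkhd1* was at 1.49, 4.01, 0.724 and 1.90 TPM in control cultures 3, 7, 14 and 21 and at 4.89, 5.65, 1.95 and 3.72 TPM in GDNF cultures 6, 12, 17 and 22. As for *C3*, the highest control was culture 7, the highest GDNF culture was 12, and the lowest of each group were cultures 14 and 17. These genes were picked for their likeness and the values are a description.

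**Figure D5:**
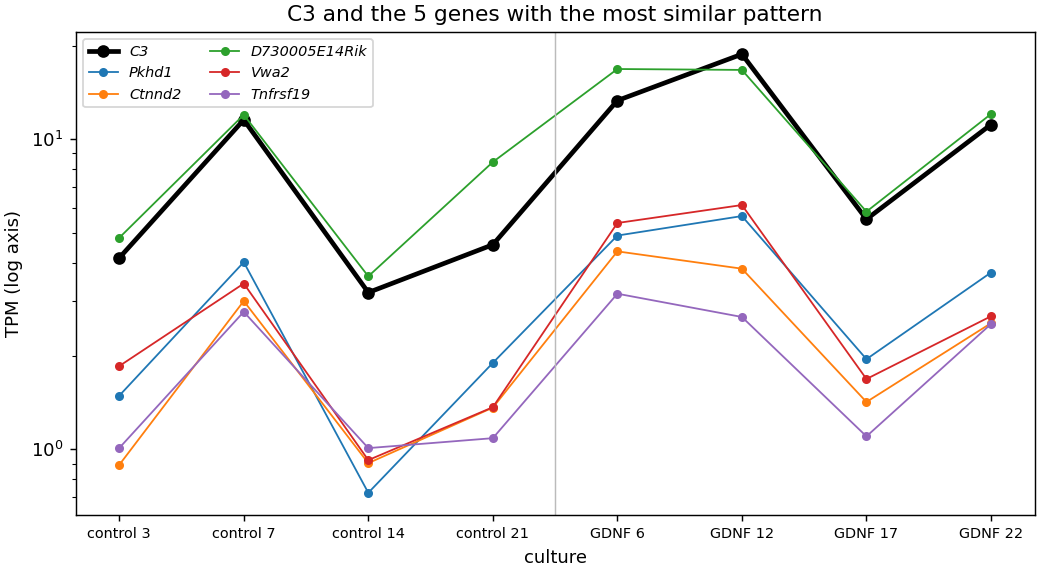
TPM on a log axis in each control and GDNF culture for *C3* (thick black) and the 5 genes with the most similar pattern; lines join cultures only to guide the eye. All 6 are high in control culture 7 and low in control culture 14 and GDNF culture 17, with *C3* running from 3.20 to 18.8 TPM.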

How the data were processed

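Tubuloid RNA was made into poly-A selected SMART-Seq v4 libraries and read as 75 bp pairs, with 4 samples in each of 2 lanes whose composition is not given. The submitters' processing notes name STAR, featureCounts, DESeq2, mm10 and GRCm38; versions, strand handling and the treatment of multiply mapped reads are not given in the sources used here. The deposited counts are whole numbers for each of 33068 RefSeq transcripts. The deposited FPKM values, used only to derive lengths, are counts per length and total count. The deposited TPM column was scaled by the authors to add up to 1000000 in each culture.

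Counts were summed per symbol, so a read shared by transcripts of a gene enters more than once (*Cfb* and *Cd59a* have 2 transcripts each). The test was that of edgeR 4.0.16 under R 4.3.3 (TMM after filterByExpr, quasi-likelihood, Benjamini-Hochberg over 16557 genes, adjusted p of 0.05), with the SE taken as the absolute log2 fold change over the square root of F. TPM is that of each gene's transcript of highest mean count, compared by exact permutation with a pseudocount of 0.1. DESeq2 1.42.0, limma-voom (limma 3.58.1), other scalings and filters, kind of culture as a covariate and leaving out each culture were the alternatives. The fits were tested on simulated data. Counting error is small beside the spread between cultures except for genes with few counts, where 3 counts is the floor.

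The genes and lists were chosen with earlier results of these data known. All 9 members are named; of the other lists, genes averaging at least 5 TPM, with an unadjusted p of at most 0.05, or with at most 3 counts in every culture qualified. Some of the other complement genes are counted but not reported singly here. The C1q chains and *C4a* were named after their values were seen. Sequences are from GENCODE release M21 and RefSeq.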

Additional observations from a re-analysis of the deposited data

Results flagged for a closer look

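In groups of 4 cultures, a culture whose gap to its nearest neighbour exceeded Dixon's 95% limit for the range was marked. Of 96 such groups 13 held a marked culture, where chance marks about 1 in 20. 3 concerned members: *C3* in control culture 7 was the highest of its group at 11.6 TPM, *Cd55* in GDNF culture 6 the lowest at 3.41 TPM, and *Cd46* in control culture 3 the lowest at 0.466 TPM. The other controls held *Cd46* at 1.57 to 1.68 TPM, so that the groups stayed apart with or without culture 3. Control culture 3 had the lowest TMM factor, 0.790, where the other controls had 0.963 to 0.982 and GDNF cultures 1.07 to 1.11.

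The other marks were in acute phase and inducer genes. *Saa3*, a serum amyloid of stressed epithelium, was the highest of its group in control culture 14 at 158 TPM and in GDNF culture 17 at 210 TPM, the cultures in which *C3* was the lowest of each group. GDNF culture 6 was lowest for *Socs3* (27.1 TPM), *Il1r1* (7.42 TPM), *Jak2* (16.3 TPM) and *Nfkb1* (6.93 TPM). Control culture 3 was lowest for *Jak1* (25.5 TPM). Control culture 21 was highest for *Nfkbia* (72.6 TPM) and *Rela* (50.2 TPM), and GDNF culture 17 for *Cebpb* (295 TPM). The cause of these values was not tested.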

How the results depend on the processing

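No paired analysis was made, because the groups share no culture numbers and the sources do not say which cultures shared an animal. No member passed an adjusted p of 0.05 for GDNF against control under any alternative run that gave it one. DESeq2 gave one to 3 of the 9 members. *Cd46* (DESeq2 unadjusted p = 0.00563), *Cd55* (0.0134) and *Cfb* (0.0214) got none there. *Cfb* was higher in every alternative, and *Cd46* in every one that tested it. The filter of 5 CPM removed *Cd46*, so that it could not be counted there. The 2 members higher at an unadjusted p became 1 with limma-voom, above the filter of 5 CPM, or without control culture 3 and GDNF culture 6 together (a choice made after seeing the data), and 1 to 3 with a culture left out; the low value was reached without GDNF culture 6 or 22 or control culture 3, 14 or 21. The 3 lower members became 0 with library size only and without control culture 3 and GDNF culture 6, and 0 to 3 with a culture left out (0 without control culture 14; 1 without GDNF culture 6, 12 or 22 or control culture 7). The exact test on TPM called 2 members and 0 with any culture left out, since its smallest p is then 0.0571.

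For other complement genes DESeq2 called 1 where edgeR called 0. Of those at an unadjusted p, the 3 higher became 5 with library size only and 1 to 4 with a culture left out, and the 2 lower became 0 with library size only, 1 with limma-voom, the filter of 5 CPM or without those 2 cultures, and 0 to 2 with a culture left out. For acute phase and inducer genes the 1 higher became 5 with library size only, 2 above the filter of 5 CPM, with kind as a covariate or without those 2 cultures, and 0 to 2 with a culture left out, and the 0 lower became 1 with kind as a covariate and 0 to 4 with a culture left out. By kind the 1 member called became 0 without those 2 cultures and 0 to 1 with a culture left out, and the 3 at an unadjusted p became 2 to 3. With TPM summed over transcripts 5 members kept their rank, while *Cr1l* and *Cd59a* changed places, as did *Cd55* and *Cfb*.

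The direction turned for *C1ra* (log2 fold change 0.11 with library size only, and -0.49 to 0.54 with a culture left out), for *C4b* without those 2 cultures (-0.20), and for *Cfi* with a culture left out (-0.22 to 0.78). By kind it turned for *Cr1l* (-0.016 without those 2 cultures, -0.041 to 0.21 with a culture left out), *C4b* (-0.50 to 1.32), *Cd55* (-0.27 to 0.013) and *Cd59a* (-0.10 to 0.29). In TPM it turned for *Cr1l* (-0.39 as log2 CPM, -0.093 to 0.086 with a culture left out), *C1ra* (-0.10 to 0.85), *Cd55* (-0.22 to 0.052) and *Cd59a* (-0.28 to 0.015). The cause was not tested. Depth limits *C4b* most, at 0 to 28 counts.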
